A study of Arabidopsis thaliana with 48 samples.

Results

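The comparison described here set the combined mutant hot3-2 dcl2 dcl4 against hot3-2 in the total extract, that is, in seedling lysate taken before any separation on a sucrose gradient. Its members were chosen by their labels: the 4 total-extract libraries of hot3-2 dcl2 dcl4 and the 4 of hot3-2, which are 8 of the 48 libraries in the series. All were made by 18S-ENDseq, an assay that circularises ribosomal RNA (rRNA) and sequences across the junction, so that each read gives the 3′ end of an 18S rRNA or pre-18S rRNA molecule and the number of nucleotides added to that end without a template (its tail). The other 40 libraries came from WT and dcl2 dcl4 seedlings and from gradient fractions. Both groups used here were 18-day-old whole seedlings in the Col-0 background and both carried hot3-2, a T-DNA insertion in HOT3. The combined mutant carried the alleles dcl2-1 and dcl4-2 in addition, so losing DCL2 and losing DCL4 cannot be told apart in these libraries. Each hot3-2 group rests on a single insertion allele. Genotypes could not be checked against the transcripts of the mutated genes, because the reads cover the 3′ end of 18S rRNA only.

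HOT3 encodes eIF5B1, a translation initiation factor that joins the ribosomal subunits. In yeast its counterpart acts together with the nuclease Nob1 when the last piece of the internal transcribed spacer (ITS1) is cut from pre-18S rRNA at the D site, where mature 18S rRNA ends. The Dicer-like enzymes DCL2 and DCL4 cut double-stranded RNA into small interfering RNAs, and rRNA can be one of their substrates. An earlier cut at A2 in ITS1 leaves pre-18S rRNA that ends around the A2 sites. The study proposes that trimming of such ends gives those around the A1 sites, and both kinds of end can be tailed.

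The sequence below is shown because every end in the data falls in it. It is the 30-base window from -5 to +24 around the D site in TAIR10.1 (RefSeq), read on the plus strand. It was identical after both annotated 18S rRNA genes, AT2G01010 (chr2:5508-5537, gene at chr2:3706-5513) and AT3G41768 (chr3:14199479-14199508, gene at chr3:14197677-14199484). The last 18S base (the D site), the 6 bases of A1 (+8 to +13) and the 2 bases of A2 (+21 and +22) are in capitals, the bases before the D site belong to 18S rRNA and those after it to ITS1.
18S 3′ end and ITS1: tcattGtcgatacCTGTCCaaaacagAAcg
Tail bases were not used here, and a tail that matches the template, or is aligned to it, is counted as template. An A-rich tail on an end before one of the runs of A at +14 to +17 or at +21 and +22 can therefore be counted as an end within that run.

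For each library the counts covered 30 end positions and tail lengths from 0 to 10 nt, which gives 330 combinations. Each was expressed as a percentage of the untailed reads at the D site of the same library, below called D-site reads. The 8 libraries held from 2441285 to 4176056 counted reads, of which 2134100 to 3536953 were D-site reads. From 135043 to 268876 reads were untailed pre-18S reads (+1 to +22), and the Wilson 95% interval of that share had a half-width of 0.366% to 0.518% of the share. These intervals cover counting error only, since the reads are PCR products without molecular identifiers. The pre-18S ratio was 6.57, 6.78, 7.21 and 7.60% in hot3-2 dcl2 dcl4, against 6.33, 6.47, 6.88 and 7.12% in hot3-2. The ranges overlapped, and the mean log2 difference was 0.07 (97.1% interval from -0.12 to 0.27, exact two-sided permutation p = 0.286, n = 4 each). Within replicate numbers 1 to 4 the log2 difference was 0.05, 0.07, 0.07 and 0.10, higher in 4 of 4 pairs (exact sign-flip p = 0.125, the smallest that 4 pairs can give). For scale, the ratio was 1.46% ± 0.0985 in WT total extract (SD, n = 4). As seedlings were lysed whole, a change in the number of cells with unprocessed rRNA and a change in such rRNA per cell cannot be told apart.

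The replicate numbers separated the libraries in many combinations. In 139 of 251 combinations tested (55.4%), 126 of them tailed, all 4 libraries numbered 3 and 4 lay above all 4 libraries numbered 1 and 2, whatever the genotype, and the opposite held in 1. What the numbers stand for was not given in the sources used here. Libraries with the same number deviated together from their group means in all 4 pairs (Pearson's r across combinations, which are not independent replicates, of 0.26, 0.48, 0.66 and 0.56). Libraries of neighbouring numbers did so as well: hot3-2 dcl2 dcl4 replicate 1 correlated with hot3-2 replicate 2 at 0.46, replicate 2 with replicate 1 at 0.32, replicate 3 with replicate 4 at 0.30 and replicate 4 with replicate 3 at 0.48. In each genotype 3 of 4 libraries correlated best with their own number. The same-number values therefore hold in part the separation of 1 and 2 from 3 and 4. As every same-numbered pair correlated above 0.1, the numbers were treated as pairs, and results are given without and with the replicate number in the model.

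Without it, edgeR's quasi-likelihood test called 0 of the 251 combinations with enough reads after Benjamini-Hochberg adjustment (0% in either direction). An unadjusted edgeR p under 0.05 was reached by 11, a smaller share than 0.05 of those tested. DESeq2 called 2 with the same scaling. With the replicate number as a block, 58 passed an adjusted p of 0.05. Of these, 34 were higher in hot3-2 dcl2 dcl4 (13.5% of those tested) and 24 were lower (9.56%). Leaving out number 3 of both groups lowered the count to 35, all among the 58. Most changes were small: 49 of the 58 were under 0.5 on the log2 scale, with a median size of 0.24. In 55 of the 58 all 4 same-numbered pairs moved the same way, but the blocked test selects for such agreement, so this is no separate support. Over all combinations 49 were higher in 4 of 4 pairs (19.5%) and 37 lower (14.7%). The called combinations lay in neighbouring positions, as the map by position and tail length shows. Higher ones were mainly untailed ends just upstream of the D site, untailed ends from +6 to +11 and tailed ends from +6 to +9, and untailed ends from +18 to +21. The other 4 were tailed ends at -1 (3) and +21 (1). Lower ones were mainly tailed ends at the D site, at +16 and +17 and at +22, with the untailed end at +4. In what follows, "rose" and "fell" refer to the edgeR test with the replicate block, and every such combination missed the threshold without it.

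**Figure D1:**
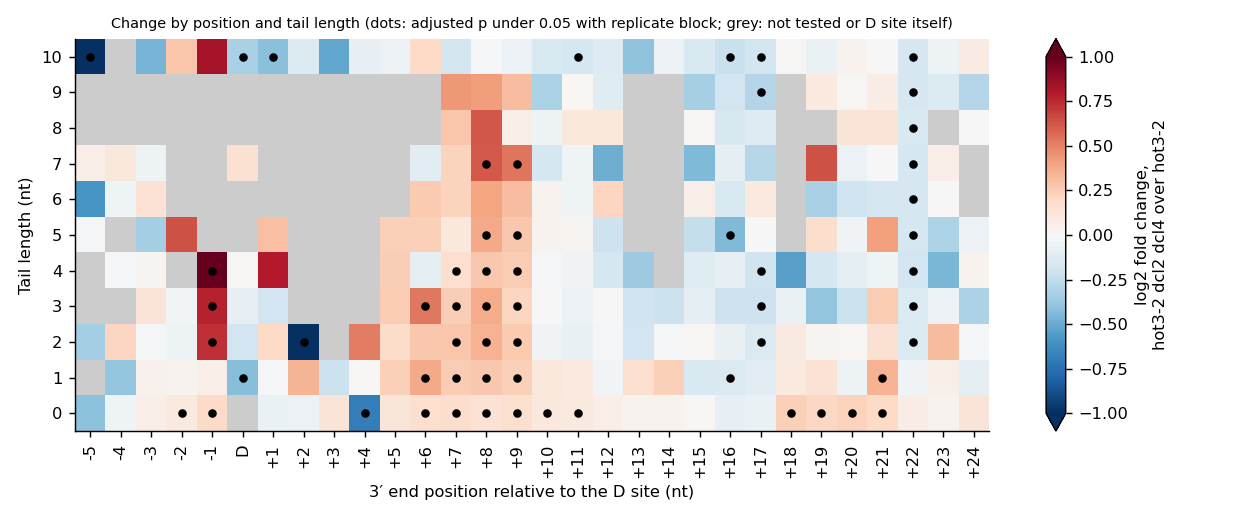
log2 fold change of hot3-2 dcl2 dcl4 over hot3-2 in total extract (colour, clipped at 1 in either direction), by 3′ end position relative to the D site in nt (horizontal axis) and tail length in nt (vertical axis, 0 for untailed). Dots mark the 58 combinations called by edgeR with the replicate block, 34 higher and 24 lower; grey cells are the D site itself and combinations with too few reads.

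Of the untailed ends, 12 of 29 rose (41.4%) and 1 fell (3.45%). Ends at -2, inside 18S rRNA, were the most abundant after the D site. At -2, untailed ends were 3.80, 3.70, 3.98 and 4.07% of D-site reads in hot3-2 dcl2 dcl4, against 3.47, 3.54, 3.71 and 3.83% in hot3-2, a log2 change of 0.10 ± 0.02 (SE, edgeR adjusted p = 0.00093). At -1 they were 0.818, 0.591, 1.01 and 1.03% against 0.702, 0.538, 0.895 and 0.879%, a log2 change of 0.19 ± 0.03 (edgeR adjusted p = 4.2e-05). The groups overlapped at both positions, and each library of the combined mutant was above the hot3-2 library of the same number.

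The largest untailed change was the decrease at +4. There hot3-2 dcl2 dcl4 had 0.0875, 0.0903, 0.0968 and 0.0956%, against 0.108, 0.185, 0.122 and 0.202% in hot3-2. The groups did not overlap, the 4 libraries of the combined mutant lay close together, and replicates 2 and 4 of hot3-2 were well above its replicates 1 and 3. The log2 change was -0.69 ± 0.09 (edgeR adjusted p = 3.2e-05 with the block and 0.42 without it). It was the 1 untailed combination without overlap. Over all 251, 5 combinations did not overlap with the combined mutant higher (1.99%) and 4 with it lower (1.59%). By exact permutation, groups of 4 that do not differ lie apart, in either direction, with probability 0.0286. That probability takes the 8 libraries as exchangeable. In the 139 combinations where numbers 3 and 4 lay above 1 and 2, the genotypes cannot lie apart. It therefore gives no baseline for these counts. At +4 both groups were above WT (mean 0.0432%) and dcl2 dcl4 (0.0339%).

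Within A1, the first 4 of the 6 positions rose. At +8, untailed ends were 0.739, 0.719, 0.826 and 0.777% in hot3-2 dcl2 dcl4, against 0.670, 0.636, 0.746 and 0.724% in hot3-2 (log2 change 0.14 ± 0.03, edgeR adjusted p = 0.0005). At +9 they were 0.541, 0.500, 0.620 and 0.599% against 0.483, 0.444, 0.552 and 0.541% (log2 change 0.16 ± 0.03). The groups overlapped and all pairs pointed up. The changes at +10 (0.10 ± 0.03) and +11 (0.10 ± 0.03) were smaller, and those at +12 (0.06 ± 0.03, edgeR adjusted p = 0.090) and +13 (0.04 ± 0.03, adjusted p = 0.43) did not pass. Untailed ends at +12, the most frequent of A1, were 1.12, 1.16, 1.21 and 1.32% in hot3-2 dcl2 dcl4 and 1.12, 1.07, 1.18 and 1.22% in hot3-2. Immediately before A1, the rare ends at +6 and +7 rose as well, by 0.17 ± 0.05 and 0.18 ± 0.03 on the log2 scale.

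At the A2 sites the 2 positions differed. Untailed ends at +21 were 0.674, 0.812, 0.688 and 0.755% in hot3-2 dcl2 dcl4, against 0.607, 0.719, 0.594 and 0.631% in hot3-2, a log2 change of 0.20 ± 0.03 (edgeR adjusted p = 4.2e-05). Only the hot3-2 library numbered 2 reached into the range of the combined mutant. At +22 they were 0.220, 0.225, 0.299 and 0.311% against 0.217, 0.211, 0.293 and 0.281%, and the log2 change of 0.07 ± 0.03 did not pass (adjusted p = 0.15). The low-level ends just before A2 rose by a like amount: 0.24 ± 0.05 at +18, 0.20 ± 0.06 at +19 and 0.23 ± 0.04 at +20. None of the 4 untailed ends from +14 to +17, the run of A after A1, was called.

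**Figure D2:**
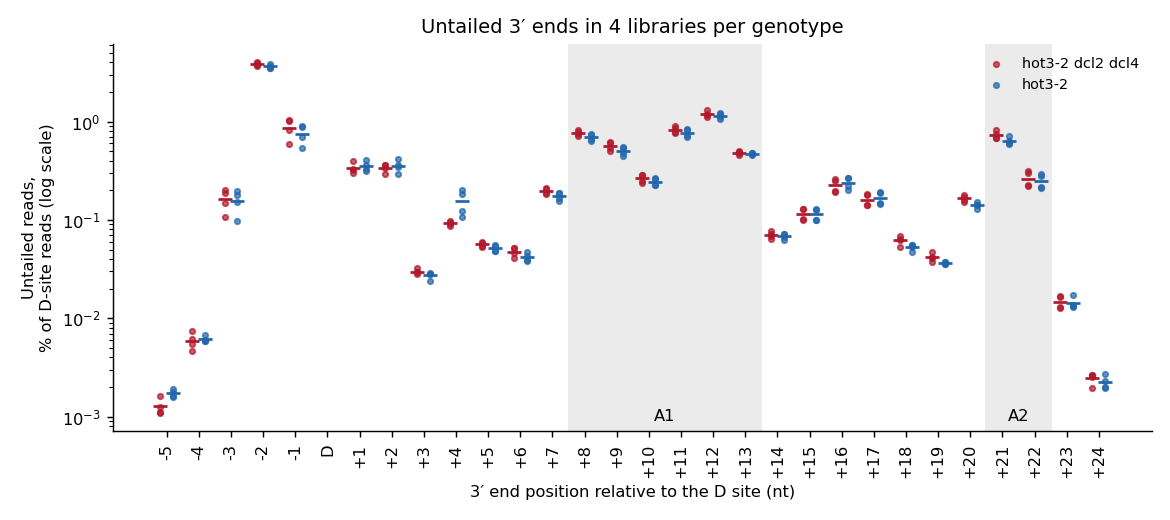
Untailed 3′ ends as a percentage of D-site reads (log scale) by position relative to the D site in nt, with 4 libraries (points) and their mean (dash) for hot3-2 dcl2 dcl4 (left of each position) and hot3-2 (right). Grey bands mark A1 and A2. The points overlap at every position except +4, where hot3-2 dcl2 dcl4 lies between 0.0875 and 0.0968% and hot3-2 between 0.108 and 0.202%.

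Tailed ends moved in both directions: 22 of 222 rose (9.91%) and 23 fell (10.4%). The mature end itself was rarely tailed, and less so in the combined mutant. D-site ends with a tail of 1 nt were 0.0189, 0.0202, 0.0187 and 0.0204% in hot3-2 dcl2 dcl4, against 0.0260, 0.0270, 0.0261 and 0.0263% in hot3-2. The groups did not overlap and were tight, with 450 to 802 reads per library. The log2 change was -0.43 ± 0.06 (edgeR adjusted p = 3.2e-05 with the block and 0.42 without it). DESeq2 with D-site size factors called this combination without a block too (adjusted p = 0.00027). Among longer D-site tails, that of 10 nt fell (-0.32 ± 0.09), though 1 of its 4 pairs went up, and the other 4 that were tested did not pass. At +1 the tail of 10 nt fell by 0.42 ± 0.11 on the log2 scale, in 4 of 4 pairs.

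Tailed ends 1 nt short of the D site were mostly monotailed. Those with a tail of 1 nt, the most abundant tailed combination, were 0.287, 0.264, 0.244 and 0.230% in hot3-2 dcl2 dcl4 and 0.246, 0.287, 0.224 and 0.224% in hot3-2, with a log2 change of 0.07 ± 0.04 that did not pass (edgeR adjusted p = 0.32). With a tail of 2 nt they were 0.00280, 0.00381, 0.00274 and 0.00331% against 0.00201, 0.00152, 0.00173 and 0.00233%, a log2 change of 0.73 ± 0.15 (adjusted p = 0.0014). The groups did not overlap for tails of 2, 3 and 4 nt, and these 3 combinations rose, but on few reads (39 to 117, 13 to 39 and 2 to 21 per library). The changes with 3 and 4 nt were 0.77 ± 0.25 and 1.27 ± 0.39. The 2 most negative changes also rest on few reads. They were tails of 2 nt at +2 (-1.44 ± 0.35, with 3 to 28 reads per library) and tails of 10 nt at -5 (-1.41 ± 0.27, with 7 to 30 reads, without overlap). The tail of 10 nt at -5 had the smallest adjusted p of all combinations without the block (0.084), and DESeq2 called it there.

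From +6 to +9 the tailed ends rose along with the untailed ones. At +8, 6 of the 10 tail lengths rose and 9 were above 0, with a median log2 change of 0.38. Ends at +8 with a tail of 1 nt were 0.110, 0.104, 0.128 and 0.119% in hot3-2 dcl2 dcl4, against 0.0907, 0.0844, 0.109 and 0.0988% in hot3-2 (log2 change 0.27 ± 0.04, edgeR adjusted p = 5.6e-05). With 2 nt they were 0.0377, 0.0337, 0.0482 and 0.0414% against 0.0297, 0.0274, 0.0347 and 0.0343% (log2 change 0.35 ± 0.05). The groups overlapped and all pairs pointed up. At +9 also 6 of 10 rose, with a median of 0.26, and at +7 the 4 shortest tails rose, with a median of 0.23 over its 10 tail lengths. Tails of 7 nt at +8 and at +9 had the largest changes there (0.62 ± 0.22 and 0.54 ± 0.14). At +6 tails of 1 and 3 nt rose, the second by 0.53 ± 0.14 with 1 of 4 pairs down.

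From +10 to +13 the tailed ends did not share the increase: of the 35 tested, 0 rose and 1 fell, a tail of 10 nt at +11. At +10, +11 and +12 the level dropped steeply beyond a certain tail length, as given below. Whether longer tails there were counted at later positions was not tested. Tailed ends at +12, among the most abundant, differed little. Those with 1 nt were 0.145, 0.152, 0.179 and 0.180% in hot3-2 dcl2 dcl4 and 0.159, 0.149, 0.183 and 0.177% in hot3-2, a log2 change of -0.03 ± 0.04. Those with 2 nt were 0.191, 0.186, 0.234 and 0.234% against 0.198, 0.181, 0.246 and 0.231%, a log2 change of -0.02 ± 0.03.

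Further from the D site, tailed ends fell at 3 positions (+16, +17 and +22), and of the other positions from +14 on a single tailed end was called, at +21. There a tail of 1 nt rose by 0.35 ± 0.09 on the log2 scale. At +16 all 10 tail lengths were below 0 and 3 fell, the largest being that of 5 nt (-0.44 ± 0.12). At +17, 9 of 10 were below 0 and 5 fell, with a median log2 change of -0.16 over the 10 lengths. Ends at +17 with a tail of 3 nt were 0.0839, 0.0765, 0.127 and 0.137% in hot3-2 dcl2 dcl4, against 0.0985, 0.0899, 0.154 and 0.146% in hot3-2 (log2 change -0.21 ± 0.04, edgeR adjusted p = 0.00097). Each library of the combined mutant was below its numbered partner, and libraries 3 and 4 of both groups were above libraries 1 and 2. At +17 the level dropped 8.21-fold to 10.3-fold between tails of 4 and 5 nt in the 8 libraries, against 1.08-fold to 1.18-fold at +22. In the sequence printed above, 3 of the 5 bases after +17 are A, up to +22. Whether longer tails at +17 were counted as ends at +22 was not tested. Such drops were not limited to +17. In hot3-2 dcl2 dcl4 replicate 1, ends at +12 went from 0.191% with 2 nt to 0.00879% with 3 nt. Ends at +11 went from 0.119% with 4 nt to 0.0209% with 5 nt. Those at +10 went from 0.00763% with 6 nt to 0.00127% with 7 nt. All 8 libraries dropped at these steps, and where longer tails at these positions were counted was not tested.

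At +22, 9 of the 10 tail lengths fell, by 0.14 to 0.19 on the log2 scale. Ends with a tail of 4 nt were 0.0984, 0.0848, 0.203 and 0.201% in hot3-2 dcl2 dcl4, against 0.120, 0.0968, 0.236 and 0.210% in hot3-2 (log2 change -0.19 ± 0.04, edgeR adjusted p = 0.0016). The difference within a pair was small beside that between numbers, since libraries 3 and 4 of both groups lay far above libraries 1 and 2. Tails of 2 and 3 nt fell by 0.14 ± 0.04 and 0.15 ± 0.04. Tails of 1 nt did not pass, with 0.136, 0.131, 0.216 and 0.235% in hot3-2 dcl2 dcl4 and 0.150, 0.125, 0.245 and 0.218% in hot3-2 (-0.04 ± 0.04). Tails of 10 nt exceeded those of 9 nt in 8 of 8 libraries, and whether this last class also holds longer tails was not given in the sources used here.

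**Figure D3:**
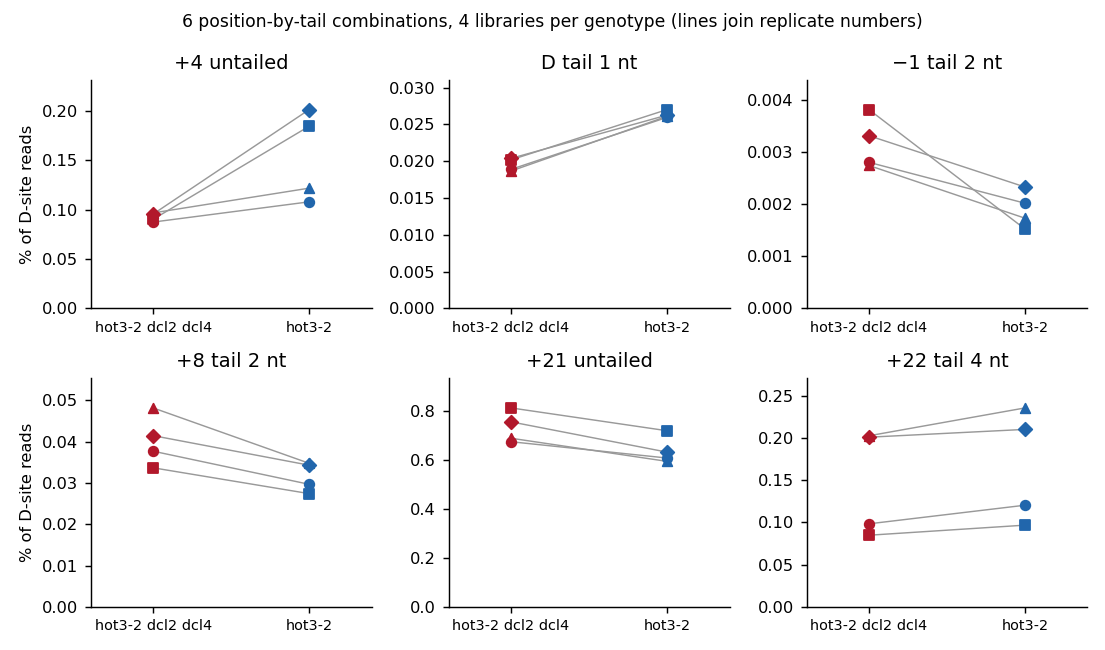
6 combinations of position and tail length as a percentage of D-site reads, with hot3-2 dcl2 dcl4 on the left and hot3-2 on the right of each panel. Each marker is a library (circle, square, triangle and diamond for replicates 1 to 4) and lines join replicate numbers; the groups are apart for +4 untailed, D with 1 nt and -1 with 2 nt, and shift within pairs in the other panels.

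**Figure D4:**
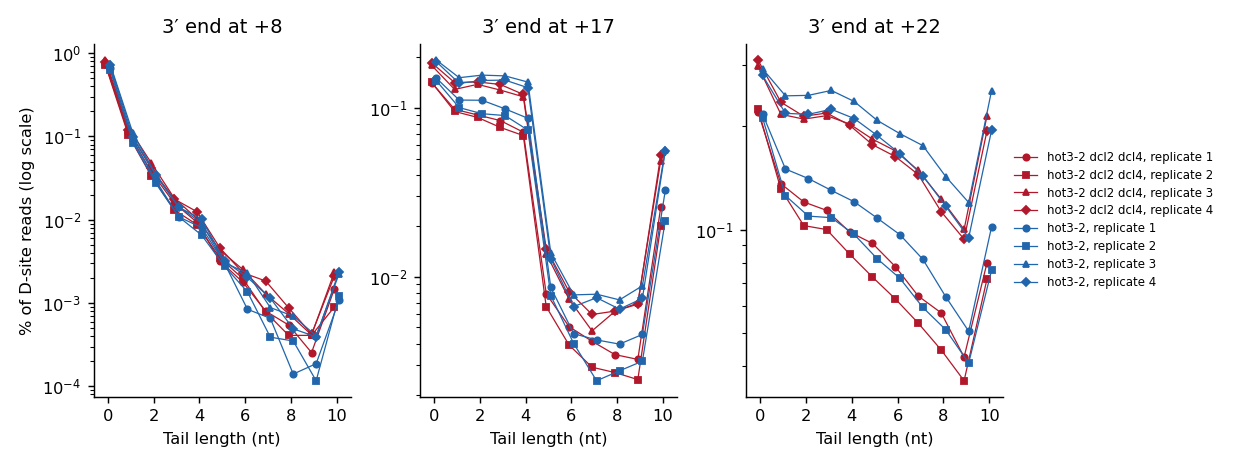
Percentage of D-site reads (log scale, each panel with its own range) by tail length in nt for ends at +8, +17 and +22 in 4 libraries of hot3-2 dcl2 dcl4 and 4 of hot3-2. Libraries numbered 3 and 4 lie above those numbered 1 and 2 at +17 and +22 in both genotypes, and at +17 the level drops 8.21-fold to 10.3-fold between 4 and 5 nt.

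The ends were also summed into 14 classes by position and tailing. Tailed ends from the D site to +2 were 0.0432, 0.0444, 0.0455 and 0.0488% in hot3-2 dcl2 dcl4, against 0.0518, 0.0529, 0.0583 and 0.0572% in hot3-2. This was the 1 class without overlap, and it had a log2 difference of -0.27 (97.1% interval from -0.43 to -0.09). By exact two-sided permutation this gave p = 0.0286, as low as groups of 4 allow, and 0.40 after adjustment over the 14 classes. In edgeR on class sums its adjusted p was 0.019 without the block and 3.8e-10 with it. This fit pools variance over the 14 classes, which share a denominator, so its p-values do not rest on the replicates of 1 class alone. Tailed ends from +3 to +7 were 0.207, 0.189, 0.242 and 0.242% against 0.179, 0.168, 0.201 and 0.200%, a log2 difference of 0.23 that was positive in 4 of 4 pairs (edgeR with the block, adjusted p = 9.0e-06). Its groups overlapped, and it did not pass without the block (adjusted p = 0.32, exact permutation p = 0.114). Tailed ends from +14 to +20 (-0.15) and from +21 to +24 (-0.14) were lower in 4 of 4 pairs, and untailed ends at -2 and -1 (0.11), at +8 and +9 (0.15), from +10 to +13 (0.07) and from +21 to +24 (0.16) were higher in 4 of 4. These 6 classes passed in edgeR with the block, with overlapping groups and exact permutation p from 0.086 to 0.629. The other 6 classes did not pass. With 4 pairs, the smallest sign-flip p is 0.125, so that an exact paired test cannot reach 0.05.

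**Figure D5:**
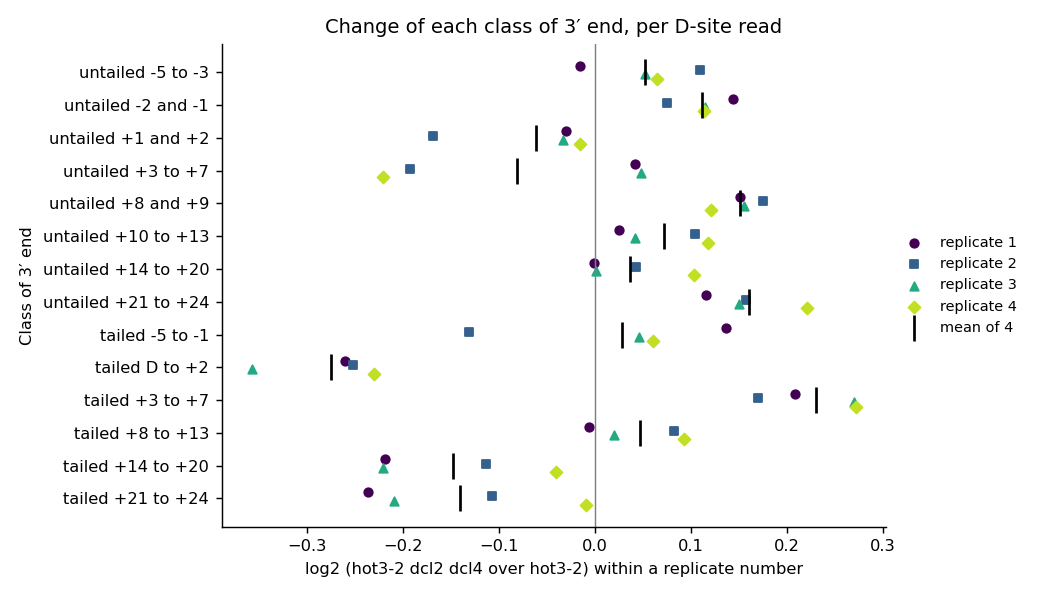
log2 ratio of hot3-2 dcl2 dcl4 over hot3-2 for each of 14 classes of 3′ end (rows), within each replicate number (4 markers) and as their mean (black line). All 4 markers lie left of 0 for tailed D to +2 and right of 0 for tailed +3 to +7, with means of -0.27 and 0.23.

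The share of ends that carried a tail was compared by zone. At the D site 0.0283, 0.0302, 0.0310 and 0.0334% of ends were tailed in hot3-2 dcl2 dcl4, against 0.0373, 0.0374, 0.0419 and 0.0402% in hot3-2. From +3 to +7 the tailed share was 34.0, 32.1, 35.2 and 35.2% in hot3-2 dcl2 dcl4, against 31.4, 26.9, 31.8 and 27.9% in hot3-2, a difference of 4.64 percentage points. Neither zone overlapped between the groups, and each had an exact two-sided permutation p of 0.0286 (0.17 after adjustment over 12 values). The second share also moves with the untailed end at +4, described above. From +21 to +24 it was 50.3, 42.9, 65.0 and 62.7% against 56.4, 47.4, 70.5 and 66.4%, lower in 4 of 4 pairs, with overlapping groups (exact permutation p = 0.543). For mean tail length the groups overlapped in all 6 zones. From +8 to +13, for example, it was 2.45, 2.40, 2.59 and 2.61 nt in hot3-2 dcl2 dcl4 and 2.51, 2.44, 2.65 and 2.66 nt in hot3-2, lower in 4 of 4 pairs.

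Whether dcl2 dcl4 acts differently with hot3-2 than without it was asked by comparing these changes with those of dcl2 dcl4 against WT in total extract, which used other libraries. With edgeR, a difference of effects was called in 0 of 253 combinations (0%). The smallest edgeR adjusted p was 0.43 without the block and 0.074 with it. An unadjusted p under 0.05 was reached by 8 without the block, a smaller share than 0.05, and by 24 with it, a larger one. The lack of calls does not show that the effects were equal. The A1 ratio (untailed +8 to +13) differed by 0.10 between hot3-2 dcl2 dcl4 and hot3-2 and by 0.21 between dcl2 dcl4 and WT on the log2 scale (exact permutation p = 0.0286 for the difference of effects, 0.069 after adjustment over 6 values). A1 over A2 differed by -0.07 in the first comparison and by 0.13 in the second (exact permutation p = 0.0286, 0.069 adjusted). For the tailed share at the D site, given above, the difference of effects had an exact permutation p of 0.0286 (0.17 after adjustment over 12 values).

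Against the same genotypes in the nonpolysome fraction, edgeR called a difference of effects in 0 of 273 combinations (0%). The smallest edgeR adjusted p with the block was 0.095. An unadjusted p under 0.05 was reached by 10 without the block, a smaller share than 0.05, and by 20 with it, a larger one. The labels do not say whether both extracts of a number came from the same seedlings. Per the study's methods, total RNA was extracted from the lysate loaded on the gradient, so they may have. The tests of differences of effects took the extracts as independent. Overlap in the nonpolysome fraction was looked at for selected combinations only, so no share over all combinations stands beside it. Among those selected, tails of 2, 3 and 4 nt at -1 were also without overlap there. Those of 3 nt were 0.00432, 0.00193, 0.00276 and 0.00223% in hot3-2 dcl2 dcl4, against 0.000682, 0.000944, 0.000922 and 0.00110% in hot3-2. Tails of 10 nt at -5 were lower there without overlap as well, with a log2 ratio of the means of -1.42. Untailed ends at +21 were higher there without overlap, with 1.87, 1.37, 1.82 and 1.18% in hot3-2 dcl2 dcl4 against 1.01, 1.07, 0.985 and 0.980% in hot3-2. Their log2 ratio of the means was 0.62. Tails of 1 nt at the D site were 0.0505, 0.0361, 0.0442 and 0.0393% in hot3-2 dcl2 dcl4 and 0.0433, 0.0406, 0.0436 and 0.0445% in hot3-2, with overlap. Untailed ends at +4 overlapped as well, with a log2 ratio of the means of -0.14, and were lower in 4 of 4 pairs, as in total extract. Untailed ends at -1 were 2.62, 2.25, 2.85 and 2.89% in nonpolysome hot3-2 dcl2 dcl4 and 5.21, 2.7, 5.52 and 3.12% in nonpolysome hot3-2, below their partners in 4 of 4 pairs, whereas they were above in 4 of 4 in total extract. For the class of untailed -2 and -1 the difference of effects had an exact permutation p of 0.0286 (0.13 after adjustment over 14 classes). A1 over A2 differed by -0.07 in total extract and by -0.35 in the nonpolysome fraction on the log2 scale. Its difference of effects, and that of the D-site share of counted reads, each had an exact permutation p of 0.0286 (0.086 after adjustment over 6 values).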

How the data were processed

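The authors deposited raw counts of reads per 3′ end position and tail length. Per the study's methods, reads were trimmed and mapped with STAR to the authors' own 45S rDNA reference, where the D site is position 1891. The submitters' processing notes name cutadapt 4.2 and STAR 2.7.10b, while the methods name another release of STAR. Only reads starting at the mature 18S 5′ end were kept, so other molecules are not measured. Replicate numbers came from the labels, and the study describes its replicates as biological.

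Combinations with at least 10 counts in 4 libraries were tested (251 of 329, holding at least 99.9% of reads outside the D site) with edgeR 4.0.16 (glmQLFit and glmQLFTest, R 4.3.3) on the counts, with D-site reads as library size and Benjamini-Hochberg adjustment over all combinations tested, without and with the replicate number as a block. The block was used because the deviations of same-numbered libraries correlated above 0.1 in every pair. Differences of effects used 24 libraries of 6 groups. For ratios, classes and tailing they were tested by permuting same-numbered differences, so those p-values rest on the pairing by number. Ratios, classes and tailing were compared on the log2 or percent scale by exact permutation over 70 arrangements (SciPy 1.17.1), with the range of all pairwise differences between libraries as a 97.1% interval. No 2 replicates agreed within sampling noise (chi-square per degree of freedom from 5.61 to 99.6 in 12 pairs within groups).

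A simulation used these libraries' means and sizes (251 combinations, 20 simulations) and a fixed dispersion. In it, same-numbered libraries shared a deviation that was independent between combinations. There, edgeR without the block called 4.5, 58.2 and 94.5% of changes of 0.25, 0.5 and 1 on the log2 scale and 0.0524% of unchanged combinations. With the block these shares were 33.5, 73.5 and 96.2% and 1.05%. In the data the numbers pair the libraries only in part, so these shares hold for the simulated setting and do not give the error rates of the tests above. Combinations named were the A1 and A2 positions, the 12 largest changes called with the block, the 6 most abundant tailed ones, and every class and zone. Others were chosen after their values were seen. Members, lists and tests were chosen with earlier results of these data known. Alternatives were library size, normalization, filters, DESeq2 1.42.0, summed tails and left-out libraries.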

Additional observations from a re-analysis of the deposited data

Results flagged for a closer look

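Of 116 groups of 4 libraries checked, 1 held a library far from the other 3, where chance gives about 1 in 20. Ends at -1 with a tail of 4 nt were 7.8e-05% of D-site reads in hot3-2 replicate 2, against 0.000262 to 0.000294% in the other hot3-2 libraries, and this low value rests on 2 reads. The change of that combination was computed with this library included.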

How the results depend on the processing

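Without the block, edgeR called 0 combinations under all counted reads as library size, TMM, other filters, summed tails, each left-out library and replicates 1 and 2 or 3 and 4 alone. The exceptions were the replicate block (58), DESeq2 with its own size factors (1) and DESeq2 with D-site size factors (2). With the block, all counted reads as library size gave 58 calls of 251 tested and TMM gave 59 of 251. No filter gave 59 of 328, and a filter of at least 100 counts in 4 libraries gave 51 of 127. DESeq2 with D-site size factors gave 42 of 251, where 25 combinations had no adjusted p. With tail lengths summed it was 24 of 59, counting the tailed and the untailed ends of a position apart. It was 35 without replicate 3 of both groups, all of them among the 58. Leaving out number 1, 2 or 4 gave 45, 53 and 59. These fits with the block were chosen after seeing the data. Differences of effects stayed at 0 calls with all counted reads as library size, TMM and the block.

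The A2 ratio changed sign with tailed reads included (-0.0138). Leaving out 1 library moved the log2 change of the tailed ratio from +1 to +22 between -0.194 and 0.0852, and that of the D-site share between -0.0146 and 0.000409. The difference in tailed share at +1 and +2 was 0.0875 percentage points with replicates 1 and 2 alone and ranged from -0.153 to 0.0741 with 1 library left out. Among single combinations, left-out libraries turned the sign at +22 untailed (-0.0161 to 0.158), at +22 with 1 nt (-0.196 to 0.126), 2 nt (-0.315 to 0.0546) and 3 nt (-0.327 to 0.0691), and at +12 with 1 nt (-0.0789 to 0.0260) and 2 nt (-0.0914 to 0.0531). The classes that turned were untailed -5 to -3 (-0.149 to 0.235), untailed +14 to +20 (-0.0232 to 0.0931), tailed +8 to +13 (-0.0305 to 0.114) and tailed +21 to +24 (-0.373 to 0.0802). Mean tail length turned from +14 to +20 (-0.118 to 0.0615 nt) and from +21 to +24 (-0.154 to 0.0216 nt). With 1 library left out the replicate numbers are unequal between the groups. Combinations with few reads, such as the tails of 3 and 4 nt at -1, are limited by depth.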
